A study of Equus caballus with 11 samples.

Results

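In horse tissue, 807 CpG sites were found at which lung stood apart from both heart and liver while heart and liver stayed close to each other. They come from 68147 CpGs on chromosomes 1 to 31 that were read at least 10 times in each of 11 libraries, the strands of each CpG being combined. A CpG was kept when the mean level of the lung libraries was at least 20 percentage points below, or above, the mean of heart and that of liver, when the heart and liver means were under 15 points apart, and when no lung library fell inside the range of the heart and liver libraries. Lung was the less methylated tissue at 565 of them, called lung-low CpGs here (0.829% of the CpGs examined), and the more methylated at 242, called lung-high CpGs (0.355%). The levels themselves chose these sites, so that tissue levels at them are given as a description, without a test.

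CpG methylation is a methyl group on the cytosine of a CG pair, copied to the new strand at each cell division, and it is laid down and removed while cells take on their identity. Most CpGs of mammalian tissues outside CpG-dense promoters are methylated, and sites that lose methylation in a single tissue often lie in enhancers and gene bodies used by its cells. Lung holds alveolar and airway epithelium, a dense capillary bed, smooth muscle, fibroblasts and many resident and circulating immune cells. A level of 50% in bulk tissue can stand for a change in part of the cells or for a change on part of the chromosomes of each cell, and the makeup of the tissue and the state of its cells cannot be told apart in these data.

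The samples were left ventricle of the heart, caudal lobe of the right lung and right lobe of the liver from healthy cold-blooded stallions of 1 to 2 years, with no treatment named. There were 4 heart and 4 lung libraries from horses 1 to 4, and 3 liver libraries from horses 1, 2 and 4; liver of horse 3 was not analysed here. Reduced representation bisulfite sequencing (RRBS) reads fragments cut at CCGG sites, and bisulfite turns unmethylated cytosine into a base read as T, so that the methylation level of a CpG is the percent of its reads that still show C. Summed over listed positions, liver of horse 2 had the fewest reads, 3255257, and liver of horse 1 the most, 25109840.

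At the lung-low CpGs the lung libraries were at intermediate levels, and heart and liver were mostly methylated. The median level was 52.8%, 51.1%, 51.7% and 51.6% in lung of horses 1 to 4, while it was 81.3%, 83.8%, 84.0% and 84.6% in heart of horses 1 to 4 and 82.7%, 84.2% and 83.3% in liver of horses 1, 2 and 4. The mean of the library medians was 51.8% ± 0.702 in lung (SD, n = 4) against 83.4% ± 1.49 in heart (n = 4) and 83.4% ± 0.773 in liver (n = 3). Over all 68147 CpGs the tissues lay close together on this measure, at 82.1% ± 1.05 in lung against 81.9% ± 0.778 in heart and 82.2% ± 1.08 in liver. The lung mean lay between 20% and 80% at 522 of the 565 sites and at or below 20% at 43. Heart was at or above 80% at 332 of them and liver at 335.

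Most lung-high CpGs lay between 20% and 80% in each of the tissues, with lung the highest. Lung libraries had medians of 73.7%, 72.1%, 71.7% and 68.0%, heart libraries of 37.5%, 37.9%, 38.6% and 33.3%, and liver libraries of 39.2%, 33.3% and 34.4%. The tissue values were 71.4% ± 2.39 in lung (SD, n = 4) against 36.8% ± 2.37 in heart (n = 4) and 35.6% ± 3.14 in liver (n = 3). Lung was at or above 80% at 77 of the 242 sites, while heart was at or below 20% at 54 and liver at 63. A full switch, from at most 20% to at least 80%, was found at 0 sites of either direction.

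**Figure D1:**
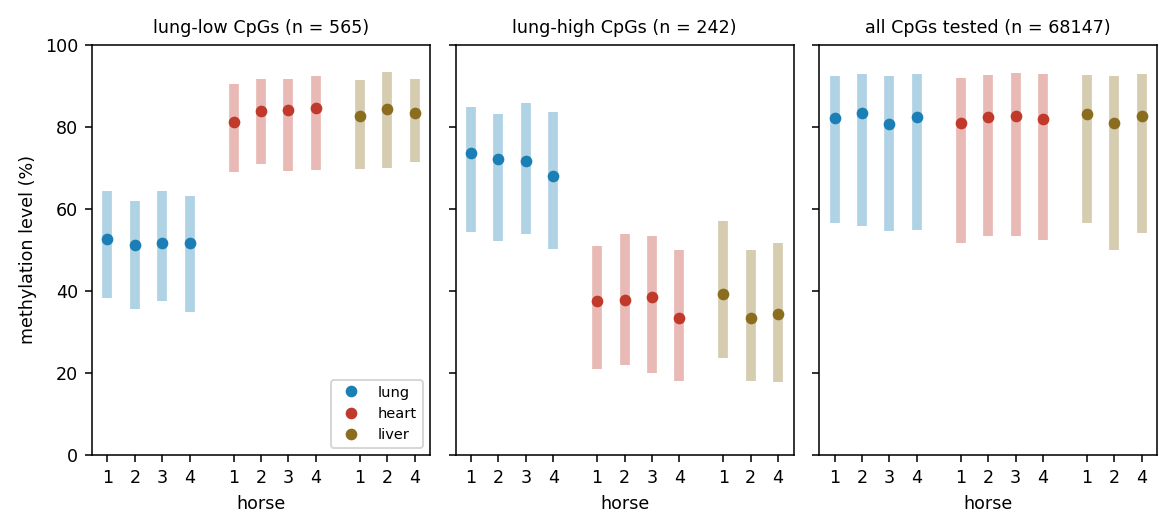
Methylation level (percent, y axis) in each of the 11 libraries, by horse (x axis), at the lung-low, the lung-high and all CpGs tested; points are medians over sites and bars run from the lower to the upper quartile. Lung medians lie at 51.1% to 52.8% for lung-low and at 68.0% to 73.7% for lung-high CpGs, apart from every heart and liver median, and all tissues lie together over all CpGs.

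The gap, that is, the distance of the lung mean from the nearer of the heart and liver means, had a median of 26.2 points at lung-low and 26.4 points at lung-high CpGs. Many sites were close to the limit of the choice: the gap was under 25 points at 239 lung-low sites (42.3%) and at 94 lung-high sites (38.8%). It reached 30 points at 159 and 79 sites, 40 points at 16 and 18, and 50 points at 2 of each direction. Its highest values were 50.6 and 50.3 points. The most methylated lung library and the least methylated heart or liver library were a median of 9.41 points apart at lung-low CpGs, and the corresponding distance at lung-high CpGs was 8.71 points. That distance was under 5 points at 139 and 73 sites.

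Just inside the limit, 60 lung-low CpGs had a gap from 20 to under 21 points, with medians of 63.8% in lung against 87.1% in heart and 88.0% in liver. Another 56 CpGs met every other condition with a gap from 19 to under 20 points and were left out, at 62.6%, 83.3% and 85.3%. For lung-high CpGs 19 sites lay just inside (75.3%, 50.8% and 52.3%) and 24 just outside (72.5%, 49.7% and 53.3%). A further 183 and 114 CpGs passed on their means and were left out because a lung library overlapped the other tissues.

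**Figure D2:**
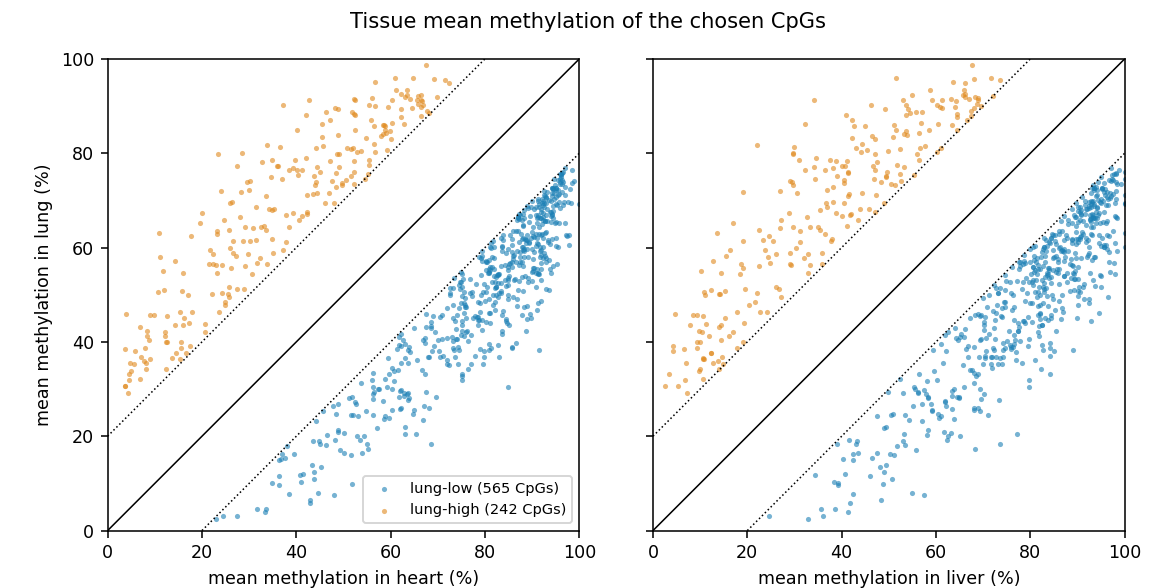
Mean methylation in lung (percent, y axis) against that in heart (left) and liver (right, x axes) for the 565 lung-low and 242 lung-high CpGs; each point is a CpG, the solid line marks equal levels and the dotted lines the 20-point limit. Lung-low CpGs crowd at high heart and liver levels with lung mostly between 20% and 80%, and no point reaches the corners of a full switch.

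Each lung library contributed to both groups of sites. At lung-low CpGs the median distance to the mid-level of heart and liver was -28.8, -30.1, -28.5 and -29.6 points in horses 1 to 4, and at lung-high CpGs it was 32.1, 28.9, 31.2 and 29.2 points. The lung library nearest to the other tissues was that of horse 3 at 179 lung-low sites and that of horse 2 at 113, the most and the fewest. Heart was the higher of both at 256 lung-low sites and liver at 308, with a median distance of 4.36 points between them. At lung-high CpGs heart was higher at 123 and liver at 119, with a median distance of 4.76 points.

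Spread between libraries of a tissue was close to counting error at these sites. The dispersion, the variance between libraries divided by that expected from read counts alone, averaged 1.09 in lung against 1.09 in heart and 1.16 in liver at lung-low CpGs and 1.14, 1.22 and 1.43 at lung-high CpGs. Over all CpGs it averaged 1.56, 1.71 and 1.51. The medians, in the same order of tissues, lay closer together. They were 0.857, 0.892 and 0.915 at lung-low, 0.915, 1.08 and 0.919 at lung-high, and 1.04, 1.02 and 0.937 over all CpGs. A typical CpG of all those examined was thus also close to counting error. The condition that libraries must not overlap favours sites with little spread, so the lower values follow in part from how the sites were chosen. At 10 reads, a level of 50% has a 95% Wilson interval from 23.7% to 76.3%, and at 31 reads, the median depth of a lung-low site in a library, 15 methylated reads have an interval from 32.0% to 65.2%. These intervals cover counting error only, since PCR copies of a molecule could not be removed.

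The same measure in a horse that took no part in the choice was described by choosing sites in the other 3 horses and reading them in the horse left out. Lung-low sites chosen without horse 1, 2, 3 or 4 numbered 659, 691, 729 and 685. In the lung library left out their median level was 56.5%, 54.5%, 57.6% and 56.4%, against 79.6%, 82.4%, 82.4% and 81.8% in the heart library of the same horse and 81.2%, 80% and 81.2% in liver of horses 1, 2 and 4. The left-out lung library was therefore below the other tissues of its horse by a median of 23.6, 24.0, 21.4 and 23.0 points. It was lower at 96.5%, 93.6%, 89.8% and 94.0% of the chosen sites, where it was lower at 44.6%, 43.4%, 45.9% and 44.6% of all CpGs. It was lower by 20 points or more at 61.5%, 62.7%, 53.2% and 57.8% of the chosen sites and at 4.12% to 7.59% of all CpGs.

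Lung-high sites chosen in the same way numbered 336, 318, 329 and 364. Lung of the horse left out had medians of 69.3%, 66.4%, 66.7% and 63.7%, and heart of the same horse 39.8%, 38.7%, 43.5% and 38.3%. Lung was higher than the other tissues by a median of 24.0, 23.7, 21.4 and 20.8 points. It was higher at 94.3%, 94.0%, 89.4% and 92.9% of the chosen sites, against 44.9% to 52.0% of all CpGs. Horse 3 had the lowest share of sites on the chosen side in both groups, and it was compared with its heart library alone.

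**Figure D3:**
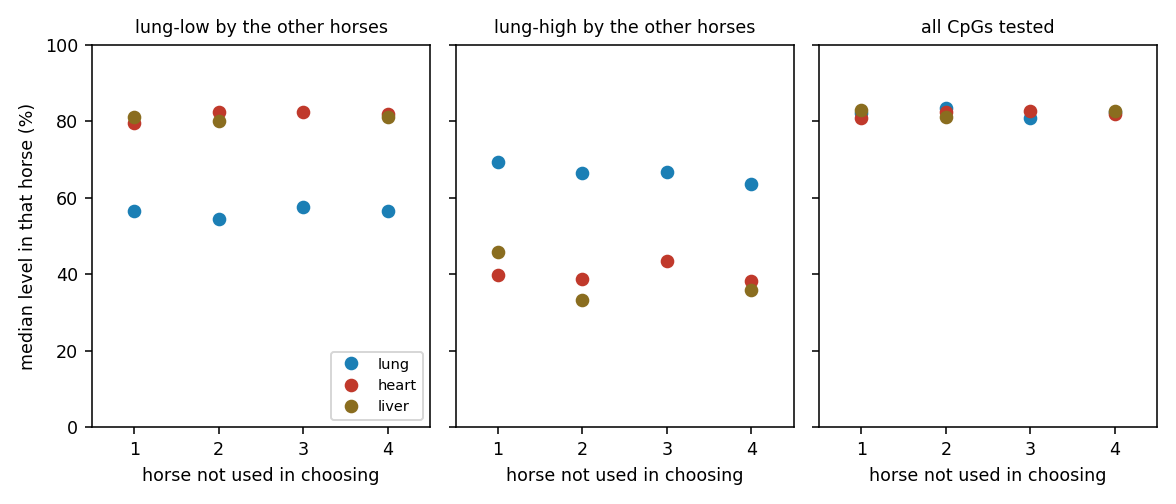
Median methylation (percent, y axis) in lung, heart and liver of the horse that took no part in the choice (x axis), at lung-low and lung-high sites chosen in the other 3 horses and at all CpGs tested; each point is a library. In all 4 horses lung lies at 54.5% to 57.6% for lung-low and at 63.7% to 69.3% for lung-high sites, apart from heart and liver, and with them over all CpGs.

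The choice did not use which libraries came from the same horse, but its condition on overlap mostly keeps out sites where horses differ widely in every tissue, so that low likeness of a horse's tissues is favoured at the chosen sites. Over all CpGs, deviations from the tissue means correlated at 0.172 on average between tissues of the same horse (10 pairs of libraries) and at -0.0573 between those of different horses (30 pairs), a difference of 0.229 (exact permutation p = 0.00174, one-sided over 576 arrangements of the horse labels, the smallest they can give). At lung-low CpGs the same averages were -0.0179 and 0.00592, a difference of -0.0238 (exact permutation p = 0.877, adjusted p = 0.877 over both groups of sites). At lung-high CpGs they were -0.0154 and 0.00503, a difference of -0.0204 (exact permutation p = 0.747, adjusted p = 0.877). Nothing is read from the values at the chosen sites, and their difference from all CpGs was not tested.

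Of the 565 lung-low CpGs, 330 (58.4%) were called lower in lung than in heart by a logistic quasi-likelihood test with Benjamini-Hochberg adjustment over all 68147 CpGs, where a call needs an adjusted p below 0.01 and 25 points or more between the depth-weighted levels. Among all CpGs 1.26% were so called. Against liver 318 (56.3%) were called, where 1.61% of all CpGs were, and 230 were called against both tissues, as were 0.39% of all CpGs. Of the 242 lung-high CpGs 141 (58.3%) were called higher in lung than in heart and 114 (47.1%) than in liver, against 1.64% and 2.3% of all CpGs, and 80 against both, as were 0.158% of all CpGs. At 147 lung-low and 67 lung-high CpGs neither comparison was called. The choice used these same contrasts, and nothing is read from the shares. Without liver of horse 1 the calls against liver fell to 134 lung-low and 66 lung-high CpGs, and without liver of horse 4 to 189 and 66. With horse as a block the test called 0 in each comparison. The unadjusted p of this blocked test was below 0.05 at all 565 and all 242 sites against heart, and at 533 and 220 against liver. The choice of the sites favours such values, and nothing is read from them. On simulated counts the blocked test also called next to none of the CpGs made to differ, so its count of 0 does not show that the calls are lost under pairing.

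Members of the same direction that lay no more than 200 bp apart were joined into regions. The 565 lung-low CpGs formed 449 regions, of which 360 were single CpGs, 66 were pairs and 23 held 3 or more. The 242 lung-high CpGs formed 196 regions, with 160 single CpGs, 29 pairs and 7 of 3 or more. Neighbouring CpGs share reads, so the CpGs of a region are not separate measurements of it. The closest CpGs of different direction were 14833 bp apart. All positions are those of the forward-strand cytosine in EquCab3.0. Genes are given only where the annotation in the study's own tables of called sites lists the position or places it between 2 listed positions of the same gene. This was so for 181 lung-low and 96 lung-high CpGs in the partly shortened copy of those tables used here.

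A lung-low region on chromosome 11 from 13904970 to 13905018 held 5 CpGs, all those tested in its span. The mean over its CpGs was 24.4%, 22.9%, 23.0% and 22.5% in lung of horses 1 to 4 against 57.7%, 54.1%, 65.7% and 58.4% in heart of the same horses, and 49.1%, 74.0% and 53.5% in liver of horses 1, 2 and 4. The lung libraries were within 2 points of each other, and the liver libraries spread widely (23.2% ± 0.852 in lung against 59.0% ± 4.83 in heart and 58.9% ± 13.3 for the 3 liver libraries, as mean ± SD). Liver of horse 2, the highest at 74.0%, had 50 reads over the 5 CpGs, and the lung libraries had 165 to 289. Whether the liver spread exceeds counting error was not tested. Lung was the lowest tissue at each of its CpGs, from 7.78% ± 1.42 at the first, where heart was at 38.5% ± 6.41, to 33.2% ± 2.68 at the third, where heart was at 67.2% ± 2.77.

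The other lung-low region of 5 CpGs lay on chromosome 25 from 30307720 to 30307770, where 7 CpGs were tested. Its lung libraries were at 16.0%, 16.5%, 9.52% and 15.6%, its heart libraries at 40.9%, 47.2%, 28.0% and 40.6%, and its liver libraries at 37.0%, 36.3% and 51.7%. Both the lung and the heart library of horse 3 were the lowest of their tissue. This is a region of low levels in a CpG-dense stretch, with up to 15 other listed CpGs within 100 bp.

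Lung-low regions of 3 CpGs with the widest gaps followed. On chromosome 5 from 4664148 to 4664208 lung had 40%, 45.8%, 55.6% and 69.6% methylation, heart 89.6%, 94.1%, 90.7% and 93.7%, and liver 93.5%, 97.2% and 91.4%. The SD between libraries there was 12.9 points in lung, 2.22 in heart and 2.95 in liver. Each lung library had 69 to 90 reads over the 3 CpGs, and counting error is larger at intermediate than at high levels. Whether the lung spread exceeds counting error was not tested. On chromosome 1 from 63284631 to 63284672 the tissue values were 52.0% ± 11.1 in lung against 88.4% ± 6.61 in heart and 94.1% ± 2.35 in liver.

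Within GRIK3, a kainate-type glutamate receptor subunit, 3 intronic CpGs between 20689933 and 20689960 on chromosome 2 were at 49.3%, 56.9%, 29.8% and 43.0% in lung against 89.1%, 82.7%, 79.6% and 100% in heart, and 77.8%, 77.8% and 90.9% in liver. The highest lung library was 20.9 points below the lowest library of the other tissues. RUNX1, a transcription factor required for the origin of blood stem cells and used in many blood lineages, held 3 intronic lung-low CpGs on chromosome 26 from 32570026 to 32570082. There the lung levels were 44.9%, 33.0%, 43.3% and 16.8%, those of heart 76.3%, 78.6%, 75.8% and 72.2%, and those of liver 70.7%, 69.2% and 75.8%.

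Among the listed genes RUNX1 was the sole one with CpGs of both directions. An intronic CpG at 32548116, 21910 bp from the lung-low CpGs, was at 83.8%, 71.4%, 88.2% and 75.9% in lung against 49.2%, 50%, 41.7% and 55.2% in heart, and 54.7%, 50% and 62.9% in liver. So the same gene was less methylated in lung than in both other tissues at a first place (34.5% ± 12.9 in lung against 75.7% ± 2.65 in heart and 71.9% ± 3.42 in liver) and more methylated at a second (79.8% ± 7.59, 49.0% ± 5.56 and 55.9% ± 6.5).

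Among the single lung-low CpGs, that at 51276590 on chromosome 1 had the widest gap of all, 50.6 points. Its level was 37.9%, 36.1%, 35.0% and 44.4% in lung against 91.9%, 93.9%, 85.7% and 94.1% in heart, and 86.0%, 100% and 81.0% in liver, with 10 to 43 reads per library. The second, on chromosome 18 at 13621680 in an intron of the noncoding gene ENSECAG00000028347, was at 29.2%, 14.7%, 18.8% and 10.7% in lung against 72.7%, 71.9%, 58.8% and 70.8% in heart, and 66.7%, 80% and 73.9% in liver. Both were isolated, with 0 other listed CpGs within 100 bp. The remaining named CpGs lay on chromosome 6 at 71859450 (39.3% ± 7.14 in lung against 82.7% ± 5.01 in heart and 82.5% ± 2.70 in liver), chromosome 8 at 50461468 (42.4% ± 5.82, 88.6% ± 7.72 and 85.5% ± 2.41), chromosome 21 at 5774865 (32.0% ± 13.8, 75.0% ± 11 and 79.7% ± 7.38) and chromosome 11 at 45166534, downstream of ENSECAG00000031286 (20.6% ± 6.57, 63.1% ± 7.53 and 77.1% ± 4.32).

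Further listed genes held 3 lung-low CpGs each. CCRL2, an atypical chemokine receptor that binds chemerin, carried its CpGs in coding sequence on chromosome 16 from 41930097 to 41930142. They stood at 54.1%, 50.6%, 53.3% and 52.4% in lung against 84.2%, 91.9%, 89.6% and 86.6% in heart, and 92.9%, 90.0% and 89.2% in liver, so that the lung libraries were within 4 points of each other. HSPA12A, a member of the Hsp70 chaperone family, was about as even, with intronic CpGs at 50.3%, 50%, 54.9% and 54.3% in lung against 84.9% ± 2.75 in heart and 84.5% ± 3.31 in liver. NEDD4L, a ubiquitin ligase that takes the epithelial sodium channel from the cell surface, was at 55.8%, 53.6%, 55.4% and 49.5% in lung against 89.6% ± 2.84 in heart and 79.5% ± 7.04 in liver. An intronic CpG of SCNN1B, a subunit of that channel and named here after its values were seen, was at 46.1% ± 9.86 in lung against 81.0% ± 6.31 in heart and 82.0% ± 10.8 in liver.

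EFNA2, a ligand of Eph receptors, was nearly unmethylated in lung, at 10.3%, 14.6%, 4.76% and 14.3%, and partly methylated in heart (41.3% ± 7.33) and liver (46.3% ± 7.58). PTPRE, a receptor-type tyrosine phosphatase, had 2 intronic CpGs at 9.52%, 7.86%, 10.5% and 0% in lung against 45.4% ± 9.74 in heart and 52.8% ± 16.9 in liver. The lung library of horse 4 held at most 18 reads at a CpG there, so that 0 allows a level of up to 16.7%. GNAO1, a G protein alpha subunit abundant in brain and heart, had CpGs downstream of the gene at 42.0%, 43.0%, 9.09% and 33.7% in lung, the widest spread among these genes, against 73.8% ± 10.2 in heart and 63.0% ± 8.19 in liver.

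Levels in PREX1, an exchange factor for Rac, were 42.3% ± 8.38 in lung against 77.5% ± 4.26 in heart and 79.5% ± 9.31 in liver over 3 CpGs. These lay between 37982985 and 38049594 on chromosome 22 and did not form a single region. CTU2, an enzyme of tRNA thiolation, was at 42.6% ± 7.66, 74.1% ± 4.83 and 73.7% ± 8.58. In CCDC186 and PPFIA1 lung was at 64.1% ± 4.49 and 55.6% ± 2.96, and heart at 91.0% ± 2.53 and 88.0% ± 2.76. With 2 CpGs each, MRPS18A, a mitochondrial ribosomal protein, was at 42.2% ± 3.79 in lung against 85.4% ± 2.96 in heart and 88.5% ± 0.669 in liver, and FYN, a Src family kinase, at 41.8% ± 13.9, 79.6% ± 10.8 and 81.1% ± 1.42.

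Single lung-low CpGs with wide gaps lay in introns of CMTM8 (25.6% ± 13.1 in lung and 65.0% ± 4.92 in heart), PCDH15 (28.3% ± 8.89 and 69.5% ± 8.37), MARCHF3 (36.8% ± 12.2 and 73.7% ± 12.6) and ATP13A3 (36.3% ± 12.4 and 71.8% ± 13.9), and in coding sequence of RTN4, which shapes the endoplasmic reticulum (26.5% ± 7.68 and 67.1% ± 9.80). Liver was at 68.1%, 64.4%, 72.7% and 81.0% in the first 4 of these genes and at 62.2% in RTN4. Each rests on a single CpG with as few as 10 to 19 reads in its shallowest library.

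The lung-high region with the most CpGs lay on chromosome 8 from 30239979 to 30240032, in coding sequence of ENSECAG00000001633 by the study's annotation. All 5 CpGs tested there were lung-high, and their mean was 51.7%, 56.9%, 62.9% and 54.4% in lung against 14.3%, 14.3%, 18.7% and 16.3% in heart, and 7.51%, 20% and 15.3% in liver. The lowest lung library was 31.7 points above the highest library of the other tissues. Lung ran from 45.6% ± 6.25 to 65.1% ± 6.22 over the CpGs, and heart from 8.98% ± 1.93 to 25.8% ± 5.45. It is a CpG-dense place, with up to 19 other listed CpGs within 100 bp.

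On chromosome 13 from 43103387 to 43103444, 4 of 5 tested CpGs were lung-high, at 81.7%, 83.0%, 85.9% and 70.5% in lung against 43.6%, 42.6%, 41.3% and 48.1% in heart, and 48.6%, 45.8% and 47.2% in liver. Heart and liver were within 8 points of each other across 7 libraries. On chromosome 5 from 93873759 to 93873808 the values for 3 CpGs were 72.3%, 83.6%, 78.3% and 68.7% in lung against 30.0%, 22.0%, 24.6% and 19.1% in heart, and 37.6%, 20% and 30.7% in liver. On chromosome 20 from 5176170 to 5176227, upstream of ENSECAG00000030025, the lung libraries spread most among the named lung-high regions, at 51%, 38.1%, 25.6% and 55.6%. They had 36 to 51 reads each over its CpGs, and whether this spread exceeds counting error was not tested. Heart (6.5% ± 2.79) and liver (6.52% ± 7.96) were nearly unmethylated. Liver of horse 2 was at 0% with at most 10 reads at a CpG there, which allows up to 30%.

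DLC1, a tumour suppressor, had 3 lung-high CpGs in a region on chromosome 27 from 16638319 to 16638343, 2 of them listed as intronic. The region was at 76.8%, 71.9%, 77.2% and 82.1% in lung against 53.3%, 49.5%, 33.3% and 28.9% in heart, and 45.8%, 40.5% and 28.7% in liver. In a region of 3 CpGs between 46593185 and 46593223 on chromosome 9, of which 1 is listed upstream of OSR2, a zinc-finger factor of embryonic development, the CpGs were at 55.4% ± 5.60 in lung against 30.6% ± 6.93 in heart and 23.4% ± 4.10 in liver. MARCHF6, a ubiquitin ligase of the endoplasmic reticulum, had 2 intronic CpGs on chromosome 21 from 50545694 to 50545745 at 72.9%, 60.6%, 82.5% and 57.7% in lung against 27.5%, 34.3%, 17.4% and 11.9% in heart, and 23.5%, 13.6% and 11.1% in liver.

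TENM2, a teneurin adhesion protein, held 2 intronic lung-high CpGs on chromosome 14, at 12902559 and 12987421. Their mean was 72.1% ± 7.20 in lung against 29.9% ± 6.04 in heart and 33.1% ± 7.43 in liver. The CpG at 12987421, named for its gap, was at 81.3% ± 9.82 in lung against 36.5% ± 11.6 in heart and 29.8% ± 13.3 in liver. The single lung-high CpGs outside listed genes lay on chromosome 1 at 165285880 (88.1% ± 8.03 in lung against 42.0% ± 9.41 in heart and 41.0% ± 8.06 in liver), chromosome 21 at 56534837 (73.9% ± 5.79, 29.5% ± 10.1 and 29.4% ± 7.84), chromosome 9 at 83651390 (74.1% ± 8.13, 30.1% ± 5.82 and 29.1% ± 5.48) and chromosome 17 at 9817744 (90.2% ± 7.15, 37.2% ± 5.16 and 46.2% ± 9.29).

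**Figure D4:**
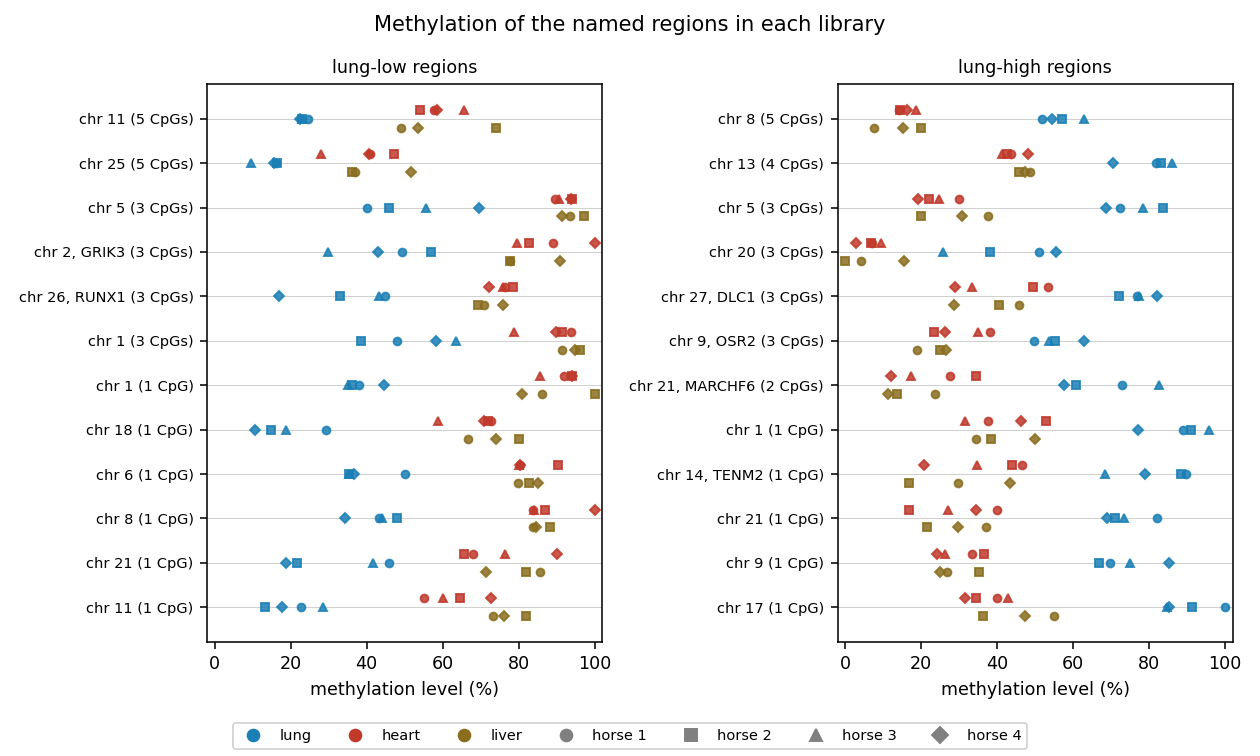
Methylation level (percent, x axis) in each library at the 12 named lung-low regions and the 12 named lung-high regions (y axis, with chromosome, gene where listed and number of CpGs); colour gives the tissue and the symbol the horse. In every region the lung libraries lie apart from all heart and liver libraries, as the choice requires, with the lung-low region of 5 CpGs on chromosome 11 at 22.5% to 24.4% in lung and the lung-high region on chromosome 8 at 51.7% to 62.9%.

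Further listed genes held 2 lung-high CpGs each. CIITA, the master activator of MHC class II genes, had CpGs upstream of the gene on chromosome 13 at 76.9%, 72.2%, 71.7% and 83.3% in lung against 44.0%, 25%, 33.3% and 51.3% in heart, and 53.2%, 55.0% and 35.4% in liver. SPP1, the secreted phosphoprotein osteopontin, was at 83.7%, 89.8%, 90.5% and 86.5% in lung against 66.5%, 66.7%, 57.8% and 62.1% in heart, and 47.9%, 41.3% and 64.0% in liver. PROM1, the membrane protein prominin 1, was at 92.0%, 94.0%, 92.1% and 89.4% in lung against 64.6% ± 5.27 in heart and 63.7% ± 15.5 in liver. In all 3 genes the liver libraries spread more widely than the lung libraries.

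RIPOR2, an inhibitor of RhoA, was at 63.2% ± 7.10 in lung against 27.7% ± 10 in heart and 29.0% ± 13.2 in liver. TLL2, a tolloid-like metalloprotease, was at 72.4% ± 5.79, 37.0% ± 8.13 and 36.8% ± 12.6, and CYP27C1, a cytochrome P450 that acts on retinoids, at 61.1% ± 7.24, 32.4% ± 4.98 and 30.8% ± 7.83. C1H10orf90 was the most even of these in lung, at 76.3%, 79.8%, 77.8% and 79.5%, against 36.7% ± 5.06 in heart and 40.2% ± 12.3 in liver. ATP6V0D1, a subunit of the vacuolar proton pump, was at 38.8% ± 5.91 in lung and at 13.5% ± 7.81 and 10.8% ± 6.66 in heart and liver.

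Single lung-high CpGs with wide gaps lay in introns of PCNT, a centrosome scaffold (78.6% ± 4.21 in lung and 34.9% ± 5.07 in heart), CDK1, the mitotic kinase (71.7% ± 14.8 and 28.3% ± 3.77), RAB3C (65.8% ± 21.2 and 24.7% ± 12.1), OVOL2, a zinc-finger factor of epithelia (54.5% ± 10.1 and 16.0% ± 5.91), CDIN1 (91.3% ± 3.72 and 52.3% ± 9.53), ADGRL2 (59.5% ± 9.65 and 21.7% ± 16.1) and ADCY5, an adenylyl cyclase (45.7% ± 19.6 and 9.93% ± 3.06). Lung libraries of RAB3C and ADCY5 spread over more than 40 points. Liver was at 31%, 19.2%, 27.2%, 14.4%, 53.0%, 16.4% and 9.40% in these genes, in the same order.

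Lists of marker genes for the cells of these organs were searched for chosen CpGs. RUNX1 was the sole hit, with CpGs of both directions, among 14 genes of blood and immune cells, of which 2 occur in the study's tables. The 15 alveolar and 6 airway epithelial genes do not occur in the copy of those tables used here, and 0 of them could be reached. That copy was partly shortened, and some of its gene symbols were cut short. The absence of a gene, and each count of genes that occur, therefore describes the copy and not the study's full tables. Of 15 lung patterning genes 4 occur there, of 14 endothelial genes 2, of 9 cardiac muscle genes 3 and of 8 hepatocyte genes 1, and 0 of these had a chosen CpG. The tables hold sites that the study called on these same libraries, so a marker gene without a hit may have CpGs that were not listed or not read.

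Annotated CpGs lay mostly in introns, 150 of 181 for lung-low and 73 of 96 for lung-high CpGs. Upstream positions made up 6 and 9, coding positions 7 and 8, and downstream positions 7 and 2. These counts describe the listed CpGs alone, because positions outside the tables have no annotation here. The study also found introns to be the commonest place of its called sites. The share over all listed positions is not given here, so no lean of the chosen CpGs towards introns is read from the counts.

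Most chosen CpGs had few other CpGs near them, as did those set apart in the other tissues. The median number of other listed CpGs within 100 bp was 2 for both groups, against 3 for all 68147 CpGs, where a CpG counts as listed if any library read it at least 5 times on a strand. Sites with 10 or more such neighbours made up 3.54% of lung-low and 4.55% of lung-high CpGs and 12.6% of all. The CpGs that the same rule gave for heart and for liver also had a median of 2 in each direction, with 10 or more at 3.58% of heart-low, 4.53% of heart-high, 1.15% of liver-low and 6.29% of liver-high CpGs. Among CpGs whose heart and liver levels left room for a gap of 20 points downward and were under 15 points apart, 11.9% had 10 or more neighbours, and among those with room upward 19.1%. The share of CpGs that were lung-low fell from 1.21% with 0 or 1 neighbour to 0.223% with 10 to 14. Over the same steps the share that were lung-high fell from 0.464% to 0.0687%, and it was 0.253% with 15 or more, where the 7 sites include the 5 of the region on chromosome 8.

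Position along the chromosome and depth were compared in the same way. Within 5 Mb of the first or last end of a chromosome, as listed, lay 16.8% of lung-low, 20.2% of lung-high and 24.4% of all CpGs. By chromosome, lung-low CpGs made up from 0.15% of the CpGs on chromosome 9, where there were 3, to 1.3% on chromosome 31, where there were 11. The shallowest library of a site had a median of 13 reads in both groups and over all CpGs. Both strands could be compared, with at least 5 reads on each in every library, at 19 lung-low and 2 lung-high CpGs. Lung was on the chosen side on both strands at 19 and 2 of them. The reads of both strands together made the choice, which favours this outcome, and nothing is read from it.

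CpGs that were not chosen but lay close to chosen ones leaned the same way. Around lung-low CpGs, 178 unchosen CpGs within 25 bp were at 53.5% ± 1.80 in lung (SD, n = 4) against 72.2% ± 0.999 in heart (n = 4) and 72.6% ± 0.863 in liver (n = 3), and lung was the lower at 98.9% of them. Over 50 and up to 100 bp away, lung was at 54.8% ± 1.98 and heart at 70.5% ± 1.29, with lung lower at 96.4% of 83 CpGs. Over 200 and up to 500 bp away, 31 CpGs had a mean of 66.8% ± 1.62 in lung and of 75.1% ± 0.835 in heart. The distance did not narrow steadily, since 30 CpGs over 500 and up to 1000 bp away were at 63.7% ± 3.23 in lung against 70.8% ± 3.08 in heart and 74.4% ± 1.10 in liver, and the median distance of lung to the other tissues went from -5.94 to -10.4 points. Over 1000 and up to 5000 bp away, lung was at 74.9% ± 0.832 and heart at 76.0% ± 0.751, and lung was lower at 55.5% of 256 CpGs, where it was lower at 45.8% of all CpGs. Nearby CpGs are read on the same molecules, so values within 100 bp repeat in part the reads behind the choice.

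Around lung-high CpGs, 111 unchosen CpGs within 25 bp were at 62.2% ± 2.31 in lung against 42.1% ± 1.09 in heart and 45.2% ± 1.81 in liver, and lung was the higher at 98.2%. The distance narrowed to 38.2% ± 1.88 in lung against 33.3% ± 1.20 in heart and 27.7% ± 1.21 in liver over 200 and up to 500 bp away (29 CpGs). Over 1000 and up to 5000 bp away the levels were 65.1% ± 0.558 in lung against 61.8% ± 1.75 in heart and 63.4% ± 1.08 in liver, and lung was higher at 63.7% of 113 CpGs and at 52.8% of all CpGs. From over 100 to 200 bp only 12 and 10 CpGs were available, and no trend is read from them.

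**Figure D5:**
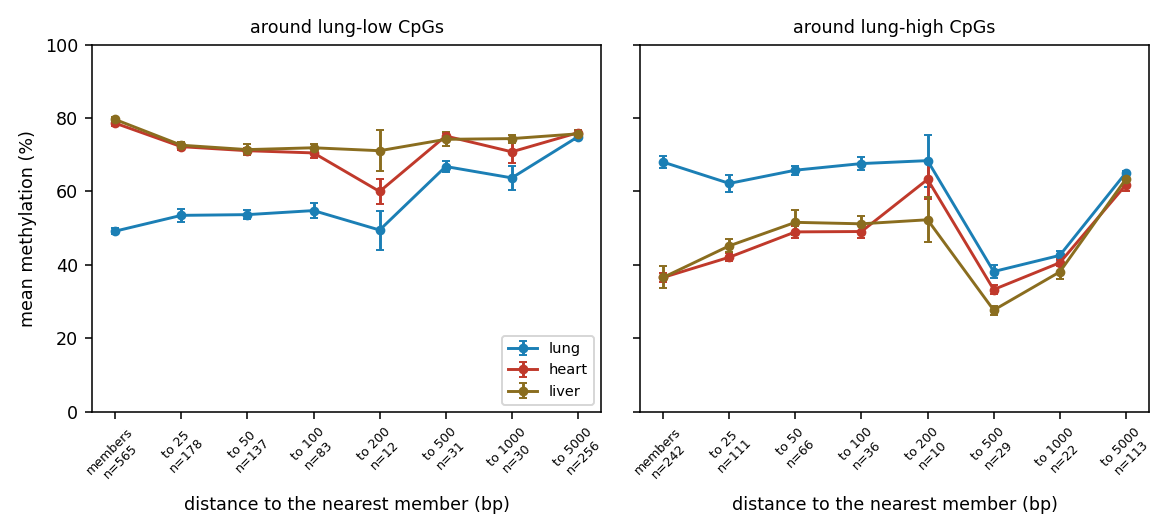
Mean methylation (percent, y axis) in lung, heart and liver at the chosen CpGs and at unchosen CpGs by distance in bp to the nearest chosen one (x axis, bins up to the distance shown, with the number of CpGs); points are means and bars SDs over libraries (n = 4, 4 and 3). Lung is at 53.5% and heart at 72.2% within 25 bp of lung-low CpGs, and they are at 74.9% and 76.0% over 1000 and up to 5000 bp away.

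The same rule applied to the other tissues gave 1118 CpGs low and 331 high in heart alone, and 1657 low and 779 high in liver alone. Liver has 3 libraries against 4 of lung and heart, which bears on how easily libraries fail to overlap, and these counts were not compared by a test. In each tissue the low sites outnumbered the high ones. For lung, 47274 CpGs had heart and liver levels that left room for a gap of 20 points downward and 20052 for one upward, and the chosen sites were 1.2% and 1.21% of these.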

How the data were processed

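Heart, lung and liver DNA of 4 horses was measured by RRBS (75-bp single-end reads). The authors aligned the filtered reads to the horse genome EquCab3.0 and kept unique alignments. The submitters' processing notes name FastQC and BSMAP, with versions not given in the sources used here. Each deposited file gives, per cytosine, coverage as a read count and the percent of C and of T, from 5 reads up. Methylated reads were recovered as coverage times percent C, whole to within rounding at 99.8% or more of positions, and strands were combined. Groups came from the tissue labels, and the replicate number was taken as the horse. Each CpG was tested by logistic regression, with dispersion moderated by limma 3.58.1 (squeezeVar, R 4.3.3) and kept at 1 or above, and Benjamini-Hochberg adjustment; the thresholds follow the study's methods. Other steps used Python 3.11.15, NumPy 2.4.6, SciPy 1.17.1 and pandas 2.3.3. The test was checked on simulated counts. Of the study's tables of called sites, position, gene and place were used, and their differences and q-values were not.

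Named regions were, per direction, the 6 with most CpGs and the 6 next with the widest gap. Named genes were the 15 with most CpGs and the 10 with the widest gap per direction, and genes of 7 marker lists (alveolar and airway epithelium, lung patterning, endothelium, blood and immune cells, cardiac muscle, hepatocytes). A gene that this rule names is not reported here. The sites and lists were chosen with earlier results of these data known. The horse numbers are the replicate numbers of the libraries, and the same number was taken to mean the same animal. Over all CpGs, deviations correlated at 0.0512 to 0.251 between libraries of the same number and at -0.146 to 0.0595 between those of different numbers. These ranges overlap slightly. Alternatives were other read minimums, gaps, thresholds, a replicate block and leaving out each library.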

Additional observations from a re-analysis of the deposited data

Results flagged for a closer look

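In groups of 4 libraries, the highest or lowest was compared with the others at the named regions and for the medians over all chosen CpGs, 52 groups in all, and 4 stood apart by Dixon's criterion, where chance gives about 1 in 20 groups. At the lung-low CpG on chromosome 6 at 71859450, lung of horse 1 was at 50% and the other lung libraries at 35.3% to 36.5%, and heart of horse 2 was at 90.2% with the others at 80% to 80.4%. At the lung-low CpG on chromosome 18 at 13621680, heart of horse 3 was at 58.8% with 17 reads, and the others at 70.8% to 72.7% with 24 to 44 reads. In the lung-low region on chromosome 25 from 30307720, lung of horse 3 was at 9.52% and the others at 15.6% to 16.5%. Each of these libraries stayed on its side of the other tissues, as the choice of the sites requires. Dixon's criterion takes no account of read depth, and the lung libraries at the CpG on chromosome 6 had 17 to 79 reads. Whether the 4 differences exceed counting error was not tested.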

How the results depend on the processing

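The 565 lung-low and 242 lung-high CpGs became 1557 and 742 with a minimum of 5 reads, 91 and 30 with 20 reads, 887 and 385 with a gap of 15 points and 159 and 79 with a gap of 30 points. They stayed within 1.5 times with depth-weighted levels, with heart and liver within 10 or 20 points, with overlap allowed, and with a replicate block of within-horse differences (543 and 239, of which 523 and 223 were chosen before). Leaving out a library gave 555 to 1055 lung-low and 253 to 427 lung-high CpGs, the highest without liver of horse 2, where more CpGs reach 10 reads in every remaining library. Called against heart were 232 to 308 lung-low and 95 to 128 lung-high CpGs when a library was left out, and against liver 134 to 294 and 66 to 106. Among members with 20 reads, 63 of 91 and 19 of 30 were called against heart and 64 and 19 against liver. The called share of all 13624 CpGs with 20 reads is not given here. The choice used these same contrasts, and nothing is read from the counts of calls. With the replicate block 0 were called in all 4 comparisons by the quasi-likelihood test, which with the block also called next to none of the CpGs made to differ on simulated counts. Counts with dispersion fixed at 1 or an adjusted p below 0.05 stayed within 1.5 times. The left-out horse's gap, averaged over horses, was -23.0 points at lung-low and 22.5 at lung-high sites, and -26.7 and 27.5 with 20 reads. Same-horse likeness at the chosen sites, from which nothing is read, had an exact permutation p of 0.806 and 0.639 without horse 3 and of 0.84 and 0.592 with 1 CpG per region. At 10 reads a gap near 20 points is within counting error for a single library.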
